A study of Danio rerio with 3 samples.

Results

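The proteases that cut and mature the extracellular matrix, and the proteins that inhibit or assist them, were examined in larval zebrafish cartilage. They were taken from the count table by gene name, as every row beginning with mmp, adam or htra and a digit, with adamts, with timp and a digit, with bmp1a or bmp1b, with tll1, pcolce or meltf, or named reck. This gave 43 of the 14417 rows. The 43 were 9 Mmp rows, 12 Adam rows, 11 Adamts rows of which 3 were Adamts-like, 4 Pcolce rows, 4 HtrA rows, 2 Timp rows and bmp1a. No row matched reck, tll1, meltf or bmp1b, and these genes were not analysed here.

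The tissue was cartilage of the cranial base in the occipital region, cut by laser from sections of 6 dpf larvae so as to leave out the perichondrium. All larvae were wild type and no treatment is named for them. The series holds no other genotype or age. The 3 independent samples are called libraries 1, 3 and 6 after their replicate numbers. With only 1 condition there was no contrast to test, and the spread between libraries is the only error. The sources used here do not say how many larvae went into a sample.

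Metalloproteinases hold a zinc ion in their active site and are made as inactive precursors. Matrix metalloproteinases (Mmps) cut collagens and other matrix proteins in the space around the cell or, when anchored in the membrane, at its surface. Tissue inhibitors of metalloproteinases (Timps) block them. Mammalian TIMP2 also joins membrane-bound MMP14 and the precursor of MMP2 in a complex in which MMP2 is activated. Adam proteases shed the outer parts of membrane proteins, whereas Adamts proteases are secreted and cut proteoglycans or procollagens. Fibrillar procollagens lose their C-terminal propeptide to tolloid proteases such as Bmp1, helped by procollagen C-endopeptidase enhancers (Pcolce), and their N-terminal propeptide to a small group of Adamts proteases. In growing cartilage, matrix cleavage accompanies chondrocyte hypertrophy, while propeptide removal is needed to build collagen fibrils.

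The libraries held 25604897, 21290328 and 18920027 counts. Counts were scaled with TMM factors (trimmed mean of M-values), which rest on the genes that change least between libraries, and put on the scale of a library of mean effective size, so that a normalized count is close to a read. No correction for transcript length was made, so a row is compared with itself between libraries, and normalized counts do not rank one gene above another in expression. A count of 0 allows up to 3 reads, or 2.90, 3.30 and 2.84 normalized counts in libraries 1, 3 and 6, and this limit covers counting error only. All 14 chondrocyte marker genes found in the table reached 10 normalized counts in all libraries, beside 67.8% of all rows. Among the 14 were the cartilage collagen gene col2a1a and the matrilin gene matn1. The 14 markers summed to 683388, 824708 and 1128410 normalized counts in libraries 1, 3 and 6. Genes of other tissues were also counted. The 11 perichondrium and bone markers found summed to 263991, 23522 and 61878 normalized counts in the same order, and the 7 epidermis markers to 30413, 1204 and 2073. Both sums were thus highest in library 1. Among the epidermis markers the claudin gene cldne had 506 reads in library 1 and 0 in the other libraries. The 8 leukocyte and osteoclast markers summed to 1704, 790.9 and 771.7, but 1498 of the sum in library 1 came from ctsk alone. The osteoclast marker acp5a did not follow ctsk, with 19.3, 13.2 and 24.6. Of the 6 with a mean of at least 10, library 1 was over 2-fold the highest in 2, beside 14.8% of all rows. It was the lowest in 3, beside 18.4% of all rows. Among the 3 was the leukocyte gene coro1a, with 18.3, 243.4 and 363.6. The sums were, in the same order, for the 10 muscle markers 5386, 2233 and 12658, for the 5 blood markers 35292, 5006 and 36244 and for the 11 nerve and glia markers 5014, 6594 and 8338. In captured tissue, fewer cells of a type and less RNA per cell cannot be told apart.

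Of the 43 rows, 28 reached 10 normalized counts in all libraries, a share of 65.1% beside 67.8% of all rows of the table. Proteases and inhibitors thus passed this minimum about as often as other genes. The row htra4 stayed below 10 in all libraries. The other 14 rows that did not pass reached 10 in at least 1 library, and they were mmp9, mmp23bb, mmp24, pcolce2a, ADAMTS14, adamts15a, adamts10, ADAMTS17, adamts22, adamtsl7, adam8a, adam22, adam28 and HTRA2 (4 of 31). Reads were concentrated on few rows. The 10 rows with the most reads took 81.5%, 80.9% and 88.4% of all normalized counts of the 43 rows in libraries 1, 3 and 6.

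**Figure D1:**
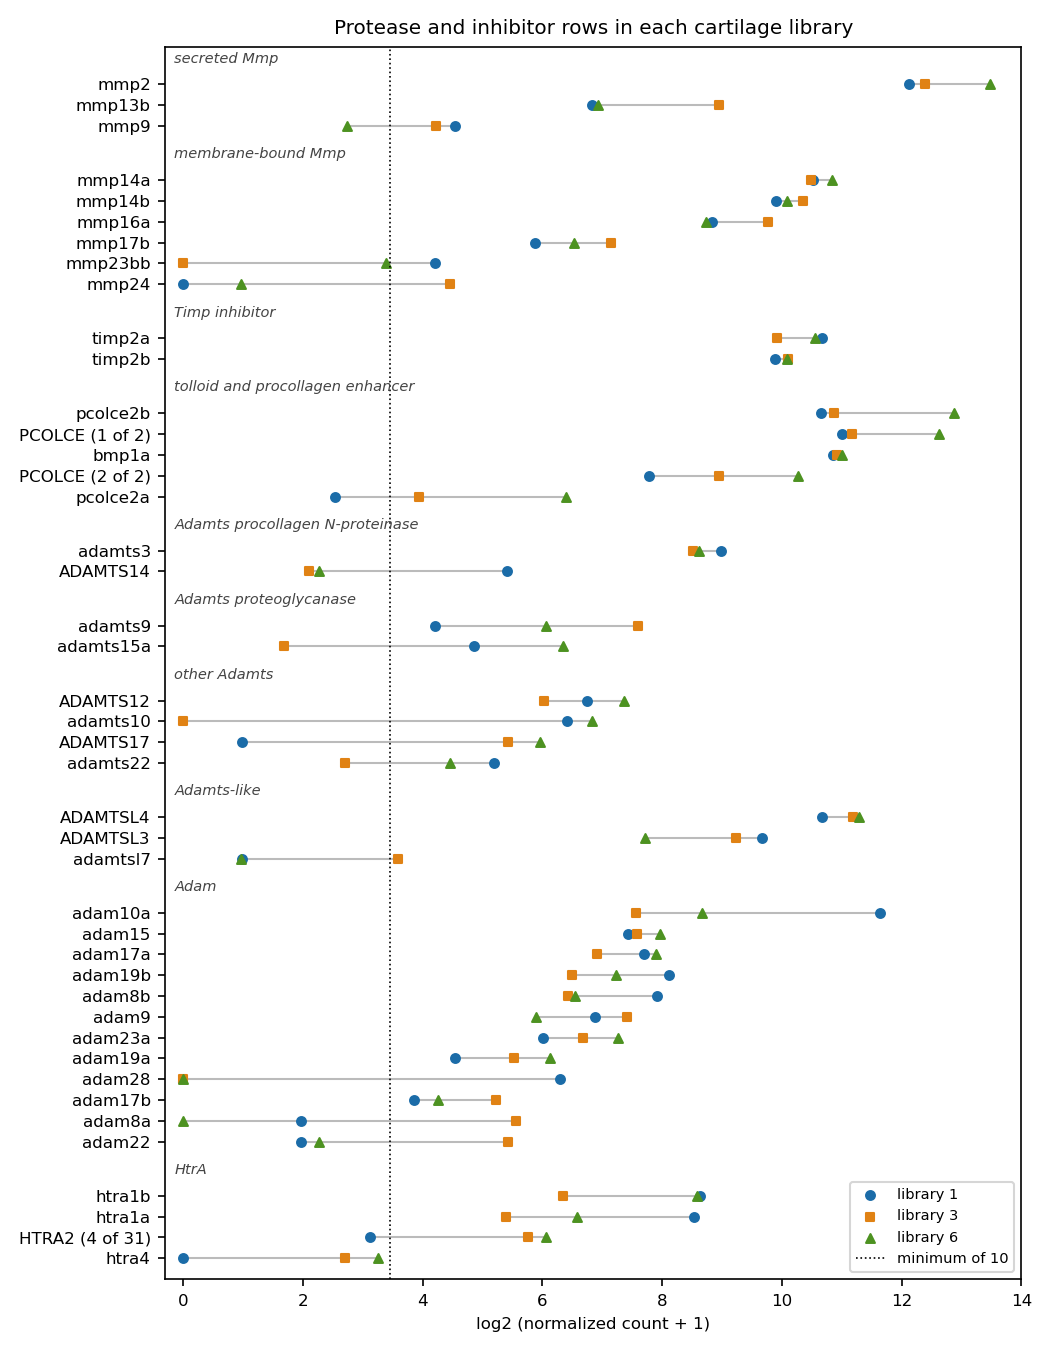
Normalized counts of the 43 protease and inhibitor rows, as log2 (normalized count + 1), with 1 symbol per library and rows grouped by role; the grey line spans the 3 libraries and the dotted line is the minimum of 10. bmp1a, timp2b, mmp14a and mmp14b lie in nearly the same place in every library, the Pcolce rows and mmp2 lie furthest right in library 6, and adam10a lies far to the right in library 1.

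Among the secreted Mmps, mmp2 carried most of the reads. This gelatinase gene, whose product cuts denatured collagen and basement membrane collagen, had 4471, 5343 and 11388 normalized counts in libraries 1, 3 and 6. Its mean was 7067 ± 3767 (SD, n = 3 libraries). Library 6 was 2.13 times the next library, while libraries 1 and 3 differed by 1.195 times. In contrast, mmp13b, a collagenase gene, was highest in library 3, with 112.9, 494.6 and 121.2 normalized counts in libraries 1, 3 and 6. Its mean of 242.9 fell to 122.5 without library 3. The other gelatinase gene, mmp9, was scarce, with 23, 16 and 6 reads.

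Among the membrane-bound Mmps, most reads fell on the paralogs mmp14a and mmp14b, which encode membrane-type collagenases and varied little between libraries. For mmp14a the normalized counts were 1471, 1437 and 1825 in libraries 1, 3 and 6, a mean of 1578 ± 214. For mmp14b they were 953.6, 1313 and 1089, a mean of 1119 ± 181. The highest library was 1.27 times the lowest for mmp14a and 1.38 times for mmp14b. The membrane-type gene mmp16a had 454.6, 875.7 and 426.1 normalized counts, and mmp17b, whose mammalian counterpart is held in the membrane by a lipid anchor, had 57.9, 139.9 and 90.9. Both were highest in library 3. The last membrane-bound genes were close to the limit of detection. There were 18, 0 and 10 reads on mmp23bb and 0, 19 and 1 reads on mmp24 in libraries 1, 3 and 6.

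Both Timp rows belonged to Timp2. The inhibitor gene timp2a had 1632, 970.4 and 1500 normalized counts in libraries 1, 3 and 6, a mean of 1367 ± 350. Its paralog timp2b had 948.8, 1094 and 1089, a mean of 1044 ± 82.3. The highest library was 1.15 times the lowest for timp2b and 1.68 times for timp2a. Spread was measured as the SD between libraries of log2 (normalized count + 1), which was 0.12 for timp2b with TMM scaling. Of the 1397 rows of the table that averaged 1000 normalized counts or more, 5.08% had a smaller SD.

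Ratios of reads within a library can be compared between libraries. Transcript length cancels where each side is 1 gene. It does not cancel fully where rows are summed, because their shares of the sum shift between libraries. The ratio of timp2a and timp2b reads to mmp2 reads was 0.577, 0.386 and 0.227 in libraries 1, 3 and 6. The ratio of mmp14a and mmp14b reads to mmp2 reads was 0.542, 0.515 and 0.256. Both ratios were thus lowest in library 6, where mmp2 was highest. By comparison, the ratio of Timp2 to Mmp14 reads moved by only 1.42 times, from 0.751 in library 3 to 0.889 in library 6 and 1.06 in library 1. Against all 9 Mmp rows, the log2 ratio of Timp reads was -2.10 ± 0.50 (SD, n = 3 libraries).

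**Figure D2:**
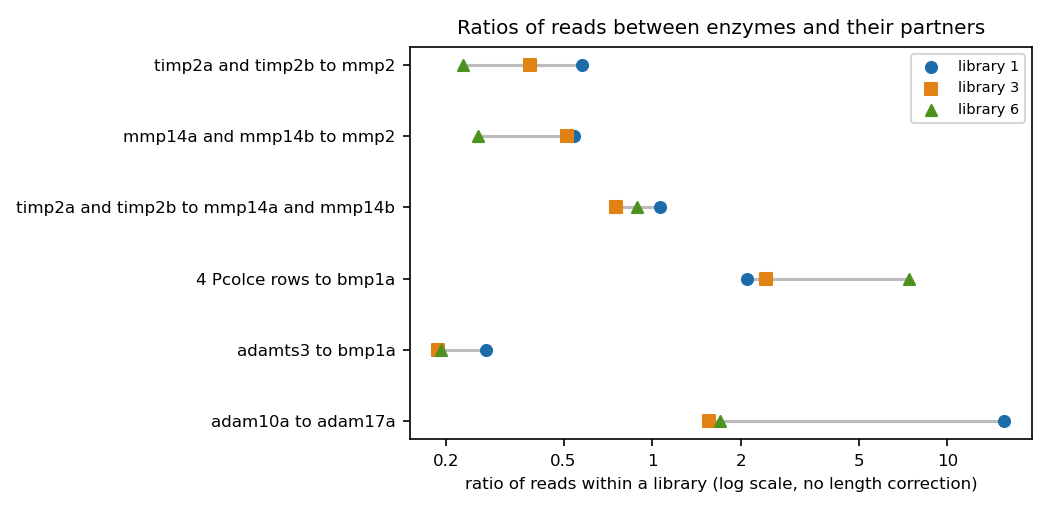
Ratios of reads between enzymes and their partners within each library, on a log axis and without length correction, with 1 symbol per library. Timp2 to Mmp14 spans 1.42-fold, the 4 Pcolce rows to bmp1a stand at 7.40 in library 6, and adam10a to adam17a stands at 15.5 in library 1 against 1.56 and 1.70 in the other libraries.

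Among the procollagen-processing genes, bmp1a and its enhancers differed in how they varied. The tolloid protease gene bmp1a had 1855, 1932 and 2047 normalized counts in libraries 1, 3 and 6. With TMM scaling the SD of its log2 value was 0.07, and 2.004% of those 1397 rows had a smaller one. The enhancer gene pcolce2b had 1608, 1874 and 7503 normalized counts. The row PCOLCE (1 of 2) had 2061, 2305 and 6324, and PCOLCE (2 of 2) had 220.1, 492.4 and 1232. Every one of the 4 enhancer rows was highest in library 6, by 4.004, 2.74, 2.50 and 5.82 times the next library for pcolce2b, PCOLCE (1 of 2), PCOLCE (2 of 2) and pcolce2a. The row pcolce2a rested on 5, 13 and 88 reads. The means of the first 3 enhancer rows depended on library 6. Without it, pcolce2b fell from 3662 to 1692, PCOLCE (1 of 2) from 3563 to 2122 and PCOLCE (2 of 2) from 648.1 to 346.2.

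Within a library, the reads of the 4 enhancer rows were 2.10, 2.43 and 7.40 times those of bmp1a in libraries 1, 3 and 6. Library 6 was therefore higher in the enhancer rows, beside a protease row that was nearly level with TMM scaling. The gene for the N-terminal side, adamts3, had 507.7, 363.5 and 392.9 normalized counts, and its mammalian counterpart also processes a lymphatic growth factor. The ratio of adamts3 to bmp1a reads was 0.274, 0.188 and 0.192. The other N-proteinase gene, ADAMTS14, had 43 reads in library 1 and 3 and 4 reads in libraries 3 and 6. Together, these 7 rows of C-terminal and N-terminal processing took 25.9%, 30.1% and 43.6% of the reads on all 43 rows in libraries 1, 3 and 6. Within them, the 2 N-proteinase rows took 2.26%, 1.58% and 0.98%, lowest in library 6. The rise in library 6 thus lay in the enhancer rows and not in the protease rows. The hypertrophy marker col10a1, another gene of the matrix, had 1627, 573.9 and 7069 normalized counts and was also highest in library 6. The collagenase gene mmp13b did not follow it, with 112.9, 494.6 and 121.2, highest in library 3 where col10a1 was lowest. The gene col10a1 was picked from the 19 proteoglycan and matrix substrates described below, of which 18 averaged 10 normalized counts or more. Library 6 was over 2-fold above both others in 2 of the 18, beside 10.3% of all rows, and below both in 1, beside 10.2%. A link between col10a1 and the enhancer rows was not tested. The sums of the chondrocyte, muscle, blood and nerve markers given above were also highest in library 6, though the blood sum of library 1 was close, at 35292 against 36244. Library 6 was over 2-fold above both others in 4 of the 10 muscle and 2 of the 5 blood genes. This held for only 1 of the 14 chondrocyte and 1 of the 11 nerve and glia genes, beside 10.3% of all rows. The muscle myosin gene myhz1.1 was lowest in library 6, and the blood gene hbaa1 was highest in library 1. The part of any of these tissues in the levels of the enhancers was not tested.

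The remaining Adamts proteases had few reads. The proteoglycan-cleaving enzyme gene adamts9 had 17.4, 192.8 and 65.3 normalized counts in libraries 1, 3 and 6, and its mean of 91.8 fell to 43.3 without library 3. The aggrecan- and versican-cleaving enzyme gene adamts15a went the other way, with 29, 2 and 85 reads. Their substrate gene acana, which encodes aggrecan, the main cartilage proteoglycan, had 3873, 8489 and 3877 normalized counts. Both adamts9 and acana were highest in library 3, whereas adamts15a was lowest there. The aggrecan paralog acanb had 274.1, 307.3 and 497.1 normalized counts and was highest in library 6, as was adamts15a. The versican gene vcanb had 151.5, 272.1 and 242.4, highest in library 3, where adamts15a had 2 reads. A link between these enzymes and their substrate genes was not tested. ADAMTS12, whose mammalian counterpart cuts cartilage oligomeric matrix protein, passed the minimum with 106.2, 63.9 and 162.9. There were 87, 0 and 119 reads on adamts10 and 1, 38 and 65 reads on ADAMTS17, and the mammalian counterparts of both are linked to fibrillin microfibrils. For adamts10, the count of library 6 was 34.1-fold above the limit of 3 reads in library 3, with its own counting error left out. The row adamts22 had 37, 5 and 22 reads.

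The Adamts-like proteins have the accessory domains of the family but no protease domain. ADAMTSL4, whose human counterpart binds fibrillin and is needed to hold the lens in place, had 1638, 2341 and 2507 normalized counts in libraries 1, 3 and 6, a mean of 2162 ± 461. The row ADAMTSL3 ran in the opposite order, with 813.7, 602.5 and 208.3, and library 6 was the lowest by 2.89 times. The reads on adamtsl7 were 1, 10 and 1.

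Among the Adam rows that passed the minimum, adam10a differed most between libraries. The gene adam10a encodes a sheddase that cuts Notch receptors and many other membrane proteins. It had 3206 normalized counts in library 1, against 187.3 and 403.4 in libraries 3 and 6. Library 1 was 7.95 times the next library, and the mean of 1266 fell to 289.7 without it. Its average passed 1000 only through library 1, so its spread was set beside the 13166 rows that averaged 10 normalized counts or more. Of these, 82.4% had a smaller SD than adam10a. The related sheddase gene adam17a, which in mammals releases tumour necrosis factor, had 206.6, 120.1 and 237.7, so the ratio of adam10a to adam17a reads was 15.5 in library 1 and 1.56 and 1.70 in libraries 3 and 6.

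The Adam rows adam8b, adam19b and adam28 were also highest in library 1. This was not common to the Adam rows. The rows adam9, adam17b, adam8a and adam22 were highest in library 3. Library 6 was highest for adam15, adam17a, adam19a and adam23a. For adam8b the normalized counts were 239.4, 84.8 and 92.8 in libraries 1, 3 and 6, and for adam19b they were 276.1, 89.2 and 148.7. Library 1 was only 1.86 times the next library for adam19b. There were 80 reads on adam28 in library 1 and 0 in the others. The count of library 1 was 23.4-fold above the limit of 3 reads in library 3, with its own counting error left out. The sums of the epidermis markers and of the perichondrium and bone markers were highest in library 1 as well. Library 1 was over 2-fold above both others in 6 of the 7 epidermis markers. The same held for 7 of the 11 perichondrium and bone markers, beside 14.8% of all rows. Collagen I gene col1a1a, for example, had 56620 normalized counts in library 1, against 3876 and 5989 in libraries 3 and 6. In contrast, the bone gene sp7 had 0 reads in library 1 and 29.7 and 44.5 normalized counts in libraries 3 and 6. The part of skin or perichondral RNA in these Adam levels was not tested.

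The other Adam genes had no common order of libraries. For adam15 the normalized counts were 170.8, 189.5 and 250.0 in libraries 1, 3 and 6, and the highest was 1.46 times the lowest. For adam9 they were 116.8, 168.5 and 58.7. The gene adam23a, whose product lacks protease activity in mammals and binds secreted proteins at synapses, had 63.7, 101.3 and 152.4. The row of its relative adam22 had 3, 38 and 4 reads. Nerve markers were counted in every library, and the part of nerve RNA in these rows was not tested. The paralogs adam19a and adam17b had 22.2, 45.2 and 69.1 normalized counts and 13.5, 36.3 and 17.99, and adam8a had 3, 42 and 0 reads.

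The HtrA genes encode serine proteases, not metalloproteinases. The secreted proteases of htra1a and htra1b cut matrix proteins. For htra1b the normalized counts were 397.7, 80.4 and 382.5 in libraries 1, 3 and 6, and for htra1a they were 370.6, 40.8 and 94.7. Library 3 was lowest for both, but library 6 was near library 1 for htra1b and 3.91 times below it for htra1a. The mean of htra1a fell from 168.7 to 66.4 without library 1. The row HTRA2 (4 of 31), which by its name is 1 of many copies of a mitochondrial protease gene, had 8, 48 and 69 reads, and its value is uncertain if the counting split reads between near-identical copies, which was not tested. There were 0, 5 and 9 reads on htra4.

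To see whether the proteases and inhibitors varied more than other genes, the 39 of them that averaged 10 normalized counts or more were set beside all 13166 such rows. The median SD of log2 (normalized count + 1) was 0.89 for the 39 and 0.91 for all. In 9 of the 39 the 3 libraries lay within 2-fold, 23.1% beside 26.8% of all rows, and these were bmp1a, mmp14a, mmp14b, timp2a, timp2b, adamts3, ADAMTSL4, adam15 and adam17a. In 22 of the 39, or 56.4%, at least 1 library lay over 2-fold apart from both others, beside 60.1% of all rows. Row by row, the set thus varied much like the table. The 43 rows summed to 24339, 23242 and 40336 normalized counts in libraries 1, 3 and 6. These sums were 0.098%, 0.099% and 0.225% of all normalized counts, highest in library 6. The rise lay in few rows. In the same order, bmp1a and the enhancer rows summed to 5749, 6618 and 17189. The secreted Mmp rows, mostly mmp2, summed to 4606, 5856 and 11515. In contrast, the membrane-bound Mmp rows summed to 2955, 3787 and 3441, and the Adam rows to 4399, 1110 and 1434.

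Library by library, the shares of rows over 2-fold apart were also near those of the table. Library 6 was the highest by over 2-fold in 6 rows, 15.4% beside 10.3% of all rows, and these were mmp2, adamts15a and the 4 Pcolce rows. It was the lowest in 3 rows, 7.69% beside 10.2%, namely ADAMTSL3, adam8a and mmp9. Library 1 was the highest in 5 rows, 12.8% beside 14.8%, namely adam10a, adam28, adam8b, ADAMTS14 and htra1a. It was the lowest in 5 rows, 12.8% beside 18.4%, namely adamts9, ADAMTS17, PCOLCE (2 of 2), pcolce2a and HTRA2 (4 of 31). Library 3 was the highest in 4 rows, 10.3% beside 10.6%, namely mmp13b, adamts9, adam22 and adam8a. It was the lowest in 6 rows, 15.4% beside 14.3%, namely adam10a, htra1a, htra1b, adamts10, adamts15a and adamts22. With 3-fold in place of 2-fold, the 6 rows highest in library 6 became 2, or 5.13% beside 5.57% of all rows, and the rows lowest there became 1, 2.56% beside 5.73%. Library 1 was then highest in 4 rows, 10.3% beside 9.03%, and lowest in 3, 7.69% beside 12.7%. Library 3 was highest in 3 rows, 7.69% beside 5.35%, and lowest in 4, 10.3% beside 9.3%. Leaving out a library turns each count into a comparison of the other two, and the shares rose in the table as well. Without library 6, library 1 was over 2-fold above library 3 in 10 rows and below it in 10, 25.6% each beside 26.7% and 26.8% of all rows. Without library 3, library 6 was above library 1 in 11 rows, 28.9% beside 27% of all rows, and below it in 7, 18.4% beside 24.9%. Without library 1, library 6 was above library 3 in 12 rows, 31.6% beside 23.7%, and below it in 9, 23.7% beside 21.7%.

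**Figure D3:**
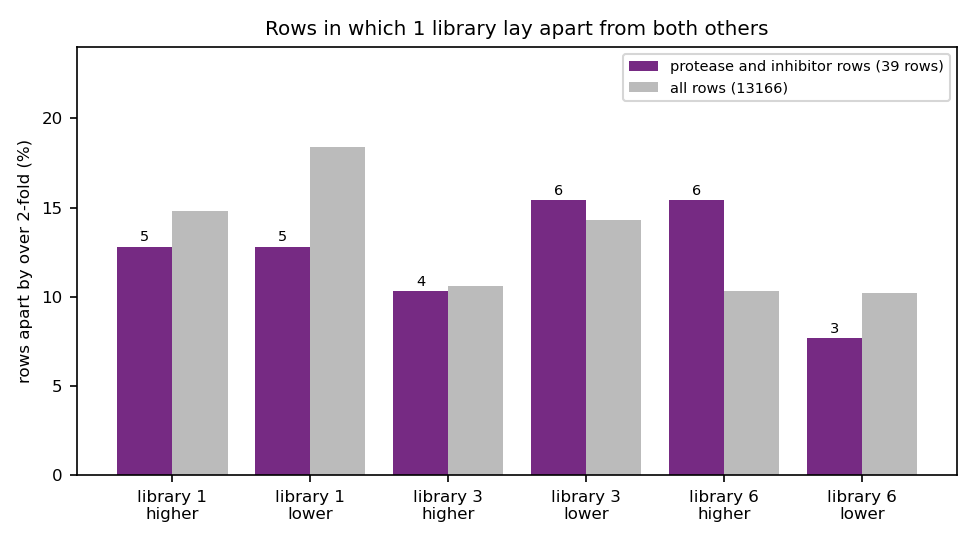
Share of rows in which 1 library was over 2-fold higher or lower than both others, in percent, for the 39 protease and inhibitor rows and for all 13166 rows that averaged 10 normalized counts or more. Bars start at 0 and the number of protease and inhibitor rows stands its bar. The 2 bars of a pair lie close together, with 15.4% beside 10.3% for library 6 higher and 12.8% beside 18.4% for library 1 lower.

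Zebrafish carry many genes in duplicate, and 8 pairs of paralogs were present. How reads were divided within a pair was compared between libraries, with exact 95% binomial intervals that cover counting error only. Reads that match both copies could have been assigned to either. The share of timp2a in Timp2 reads was 63.2% (61.4 to 65.1%), 47.0% (44.7 to 49.3%) and 57.9% (56.1 to 59.8%) in libraries 1, 3 and 6. The share of mmp14a in Mmp14 reads was 60.7% (58.7 to 62.6%), 52.3% (50.3 to 54.2%) and 62.6% (60.9 to 64.3%) in the same order. In both pairs library 3 had the smallest share for the a copy, and its interval did not overlap with those of the other libraries. The interval of library 3 also lay apart from both others in the Htra1, Adam17 and Adam8 pairs. Each remaining pair had some libraries whose intervals did not overlap. Such gaps in counting error were thus common to the pairs and do not single out Timp2 or Mmp14.

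The htra1a share was 48.2% (44.7 to 51.8%), 33.6% (24.9 to 43.3%) and 19.8% (16.4 to 23.6%) in libraries 1, 3 and 6. The share of adam19a in Adam19 reads was 7.44% in library 1 (4.78 to 10.96%) but 33.6% (25.3 to 42.7%) and 31.7% (25.8 to 38.2%) in libraries 3 and 6, which overlapped. The share of adam17a was 93.9%, 76.8% and 93.0%, lowest in library 3. On the Adam8 pair, adam8a took 1.195% in library 1, but 35.3% in library 3, and 0 of 98 reads in library 6 (exact interval up to 3.69%). Of the enhancers, PCOLCE (1 of 2) took 90.4%, 82.4% and 83.7% of the reads of its pair, and pcolce2b took 99.7%, 99.2% and 98.9%. The copy with more reads was thus the same in every library in the enhancer pairs. This was not particular to them, as it also held for the Mmp14, Htra1, Adam17, Adam19 and Adam8 pairs. Only the Timp2 pair switched, with more reads on timp2b in library 3 and on timp2a in libraries 1 and 6. Without a length correction, more reads on a copy do not show higher expression.

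**Figure D4:**
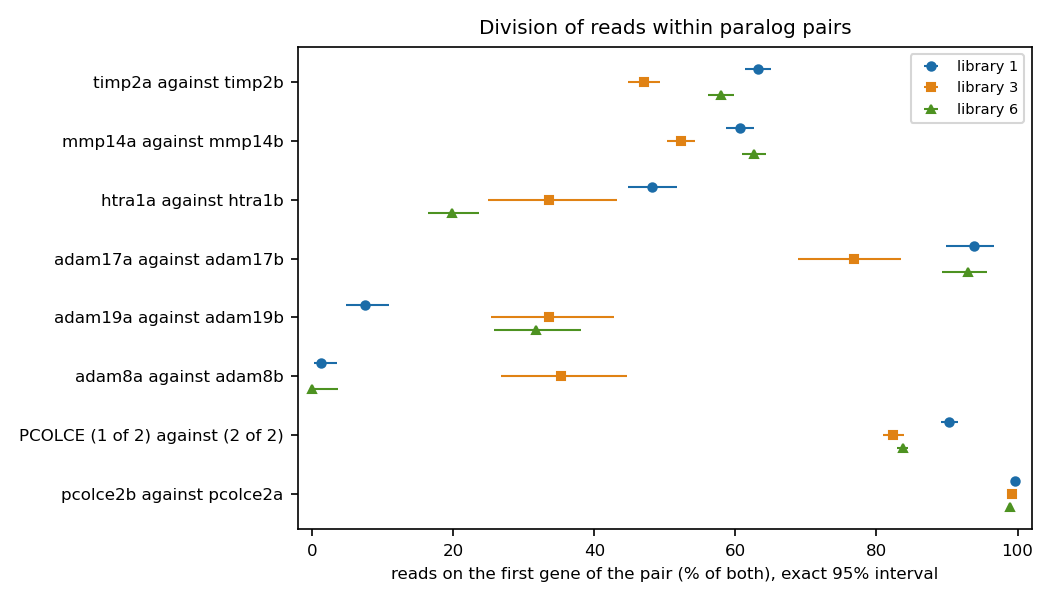
Share of reads on the first gene of each of 8 paralog pairs, in percent of the reads of both, with exact 95% binomial intervals for counting error and 1 symbol per library. The first gene holds between 47.0% and 63.2% for timp2a and between 52.3% and 62.6% for mmp14a, whereas pcolce2b holds at least 98.9% in every library.

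Genes that act on these proteases or are cut by them were taken from lists of activators and substrates. Of 12 activators and regulators found in the table, 8 reached 10 normalized counts in all libraries, beside 67.8% of all rows. The protease gene furina, whose product activates many metalloproteinase precursors, had 4974, 11001 and 5147 normalized counts in libraries 1, 3 and 6, and furinb had 484.5, 667.5 and 226.3. Of 15 substrates of tolloid and N-proteinases found, 14 passed. In 6 of these 15, library 1 was the highest by over 2-fold, beside 14.8% of all rows. Among the 6 were col1a1a, col1a1b and col1a2. The cartilage procollagen gene col2a1a had 282200, 336420 and 480763. Of 19 proteoglycan and matrix substrates found, 18 passed. Library 1 was the highest by over 2-fold in none of the 18 with a mean of at least 10, again beside 14.8% of all rows. The median SD of the log2 values was 1.02 for the activators and regulators and 1.56 for the tolloid and N-proteinase substrates. It was 0.60 for the proteoglycan and matrix substrates, beside 0.89 for the proteases and inhibitors and 0.91 for all rows. Both substrate lists shared genes with the marker lists. Among the tolloid and N-proteinase substrates, col1a1a, col1a1b and col1a2 were also perichondrium and bone markers, with a median SD of 2.13. Many proteoglycan and matrix substrates, such as acana, matn1, epyc and col9a2, were also chondrocyte markers, with a median SD of 0.52. The contrast between substrate lists thus partly repeats that between marker lists.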

How the data were processed

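RNA of laser-captured cartilage from 6 dpf wild-type larvae was amplified for 1 round and sequenced in 3 samples. The authors deposited raw read counts, whole numbers listed by gene symbol. The submitters' processing notes name Trimmomatic 0.36, edgeR and the build Zv9. The aligner, counting tool and annotation are not given in the sources used here. Amplification copies molecules and can favour some transcripts, so counting intervals understate the error.

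Counts were normalized by TMM in edgeR 4.0.16 under R 4.3.3 over all 14417 rows. Simulated data with known library scales were used to check the normalization code. Few genes changed in that simulation, whereas in 60.1% of all rows here some library lay over 2-fold apart from both others. The simulation therefore cannot show whether TMM suits these libraries. Other steps ran in Python 3.11.15 with pandas 2.3.3, scipy 1.17.1 and numpy 2.4.6. With 1 condition, no test between groups was made. A pseudocount of 1 was added before log2 and before counting rows apart by 2-fold. Transcript or coding lengths were not used here, so the planned ratios and ranks per length were replaced by reads without a length correction. Of the 43 names, 39 are a symbol or synonym in RefSeq (GRCz12tu). No coordinates or sequences are given.

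The genes and the lists of markers, activators and substrates were chosen with earlier results of these data known. By rule, the text names all Timp rows, the 3 rows with the most reads of each role, the 8 rows with the largest ratio between libraries and rows below 10 everywhere. The other rows are given for completeness. The genes cldne, ctsk, acp5a, coro1a, sp7, hbaa1, myhz1.1, col1a1a, col1a1b and col1a2 were picked from the lists after their values were seen. The same holds for col2a1a, matn1, acana, acanb, vcanb, furina, furinb and col10a1. Alternatives were DESeq2 1.42.0 size factors, total-count, upper-quartile and filtered TMM scaling, raw counts, other minimums, pseudocounts and folds, and leaving out each library.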

Additional observations from a re-analysis of the deposited data

How the results depend on the processing

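The number of rows past the minimum was 28 under every scaling, from 29 to 31 with 1 library left out, from 24 to 31 with minimums of 50 to 5 in every library, and 39 with a minimum in the mean. Total-count scaling shifted library 1 by -0.17 and library 6 by 0.29 on the log2 scale relative to TMM. These shifts are larger than the SD of 0.07 for bmp1a and 0.12 for timp2b. How level these rows were therefore depended on the scaling. With 1 library left out, the median SD was from 0.66 to 0.82, the log2 ratio of Timp to Mmp reads from -2.38 to -1.89 and the share of procollagen-processing reads from 27.96% to 36.8%. Without timp2a the log2 ratio was -3.30, since timp2b was then the only inhibitor row.

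At 3-fold, the rows lowest in library 1 went from 5 to 3, those highest in library 6 from 6 to 2 and those lowest in library 6 from 3 to 1, or 7.69%, 5.13% and 2.56% beside 12.7%, 5.57% and 5.73% of all rows. With 1 library left out, library 1 was highest in 7 to 10 rows and lowest in 10 to 11, library 3 highest in 9 to 10 and lowest in 10 to 12, and library 6 highest in 11 to 12 and lowest in 7 to 9, because 1 other library then had to be passed in place of both. The shares of all rows then ran from 21.7% to 27%, and those of these rows from 18.4% to 31.6%. Under another scaling, 0 of 215 mean levels moved past the SD of the libraries. Each scaling was centred over the same libraries, so a mean could hardly move by that much. Without some library, 21 of the 43 means moved by over 1.5 times. The same count was not made over all rows, so it does not set these rows apart from other genes. No paired analysis was possible because the libraries form 1 group. Depth limits the rows with few reads, such as htra4, adamtsl7 and mmp24.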
